A study of Homo sapiens with 15 samples.

Results

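STC2 is a single gene on the reverse strand of chromosome 5 (hg38, chr5:173314723-173328447, ENSG00000113739.11), and its DNA methylation was followed through loss and return in a colorectal carcinoma cell line. It is 1 of 20007 protein-coding genes of the annotation. The interval read here began 1 kb upstream of the gene, covered its whole length and held 416 of 29401360 CpGs. The promoter was the 1 kb on either side of the annotated 5′ end and held 140 CpGs, the gene body began 1 kb downstream of that end and held 276, and the body was also read in 1 kb bins and at single CpGs with at least 10 reads. The 5′ end of the annotation lies 53 bp from the start given in the rule for the gene.

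STC2 encodes stanniocalcin 2, a secreted glycoprotein that inhibits the pappalysins PAPPA and PAPPA2, proteases that free insulin-like growth factors from their binding proteins. It is also a target of the transcription factor ATF4 in the unfolded protein response. As background, promoters rich in CpGs are usually free of methylation, whereas the bodies of expressed genes are usually methylated. After each round of replication DNMT1 methylates the new strand, and UHRF1 recognises the hemimethylated sites and recruits DNMT1 to them.

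The cells were HCT116 carrying a short hairpin RNA (shRNA), induced by doxycycline, that targets UHRF1 or DNMT1, and were profiled by whole-genome bisulfite sequencing in 15 libraries of 6 groups. With shUHRF1 there were 3 clones, named Cl.3, Cl.6 and Cl.9, whereas shDNMT1 was studied in a pair of bulk populations, R1 and R2. Each was sequenced at Baseline (day 14 without doxycycline), at Knockdown (day 14 with 10 ng/mL doxycycline) and at Recovery (day 28, after 14 days with and 14 days without doxycycline), so all libraries carried an shRNA cassette and no Recovery library had a Baseline of its own day. The shRNA and the kind of population (clone or bulk) cannot be told apart. The counts came in 3 tables, with Cl.3 and Cl.6 in the first, Cl.9 in another and the bulk populations in the last, so the table cannot be told apart from Cl.9 or from shDNMT1, and the levels of UHRF1, DNMT1 and STC2 RNA were not analysed here.

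The libraries held 315732617 to 590592161 reads at CpGs, with a median depth of 11 to 20 reads per CpG. The methylation level (mC) is the percentage of reads at a CpG, or summed over the CpGs of a region, that were methylated. Over STC2 the promoter had 1749 to 4451 reads per library and the body from 2 kb on had 2303 to 5107, so the Wilson 95% interval reached at most 0.745 and 1.59 points on either side. Intervals cover counting error only, and an intermediate level can come from a mixture of cells or of alleles, which summed reads cannot separate. Cl.6 Baseline stood apart in a control for incomplete conversion, since 2.50% of its mitochondrial CpG reads were called methylated against 0.257% to 0.500% in the other 14 libraries. The fits of the STC2 promoter and body were therefore also made without Cl.6, as were the bin calls (by limma), whereas values in points and those of other genes were not.

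The first question was whether the STC2 promoter carried methylation at any stage. It was nearly free of methylation in all 15 libraries, and among the 40 promoter CpGs covered by 10 reads or more throughout the highest single value was 16.7%, while 7 had no methylated read in any library. In Cl.3 its mC was 1.196% at Baseline, 0.743% at Knockdown and 0.741% at Recovery. In Cl.6 the same values were 2.71%, 0.664% and 0.419%, and in Cl.9 they were 0.382%, 0.413% and 0.387%. R1 had 0.307%, 0.159% and 0.232%, and R2 had 0.287%, 0.149% and 0.313%. The highest of the 15 values was thus that of Cl.6 Baseline, the library with the raised mitochondrial level. The other libraries lay between 0.149% and 1.196%. The mitochondrial level was 0.331% to 0.375% in Cl.9 and 0.257% to 0.295% in R1 and R2, close to their promoter levels. Incomplete conversion was not subtracted, and its part in these values was not tested. Of all genes tested, 2.29% had a lower mean Baseline level than STC2 in the clones and 1.02% in the bulk populations, where the medians of all promoters were 26.7% and 24.1%.

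The edgeR quasi-likelihood test on methylated and unmethylated counts called the promoter lower in shUHRF1 Knockdown (log2 odds ratio -0.99 ± 0.42 SE, adjusted p = 0.0270) and Recovery (-1.18 ± 0.43 SE, adjusted p = 0.0142). These calls were no longer made without Cl.6, where the values were -0.30 (adjusted p = 0.522) and -0.35 (adjusted p = 0.493). They were also not made without the population as a block (adjusted p = 0.114 and 0.0866). By limma the Knockdown call was lost (adjusted p = 0.0550) and the Recovery call kept (adjusted p = 0.0243). In points the shUHRF1 change at Knockdown was -0.821 ± 1.08 (SD, n = 3), so it was smaller than the spread between clones. With shDNMT1 the log2 odds ratio was -0.92 ± 0.72 SE at Knockdown (adjusted p = 0.214) and -0.10 ± 0.66 SE at Recovery (adjusted p = 1.00), and in points the changes were -0.143 ± 0.00672 and -0.0241 ± 0.0708 (SD, n = 2). Among all promoters 91.7% and 93.6% were called at shUHRF1 and shDNMT1 Knockdown and 75.1% and 0.0% at Recovery, so a promoter call was the common outcome at Knockdown. For the count of 0 at shDNMT1 Recovery, 539 of 19255 promoters had an unadjusted p under 0.05 and limma called 1.

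Past the promoter, methylation rose in a step. In the interval from 1 to 2 kb downstream, which lies in intron 1 and holds 54 CpGs, Baseline mC was 12.8% in Cl.3, 6.30% in Cl.6 and 28.5% in Cl.9, against 8.60% in R1 and 6.86% in R2. From 2 kb to the 3′ end the 222 CpGs were almost fully methylated at Baseline, at 96.1%, 97.2% and 95.4% in the clones, against 95.4% in R1 and 95.7% in R2. Over that stretch STC2 was more methylated at Baseline than 85.5% of genes in the clones and 80.7% in the bulk populations. The body pooled from 1 kb mixes these stretches, in shares of reads that differ between libraries. Its Baseline levels were 79.6%, 77.3% and 81.3% in the clones, against 72.0% in R1 and 75.2% in R2. From 1 kb STC2 was more methylated at Baseline than 24.2% of genes in the clones and 18.8% in the bulk populations. Its rank at Baseline thus depends on the stretch read. Both definitions are therefore given below, the body from 2 kb having been added after the levels were seen.

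**Figure D1:**
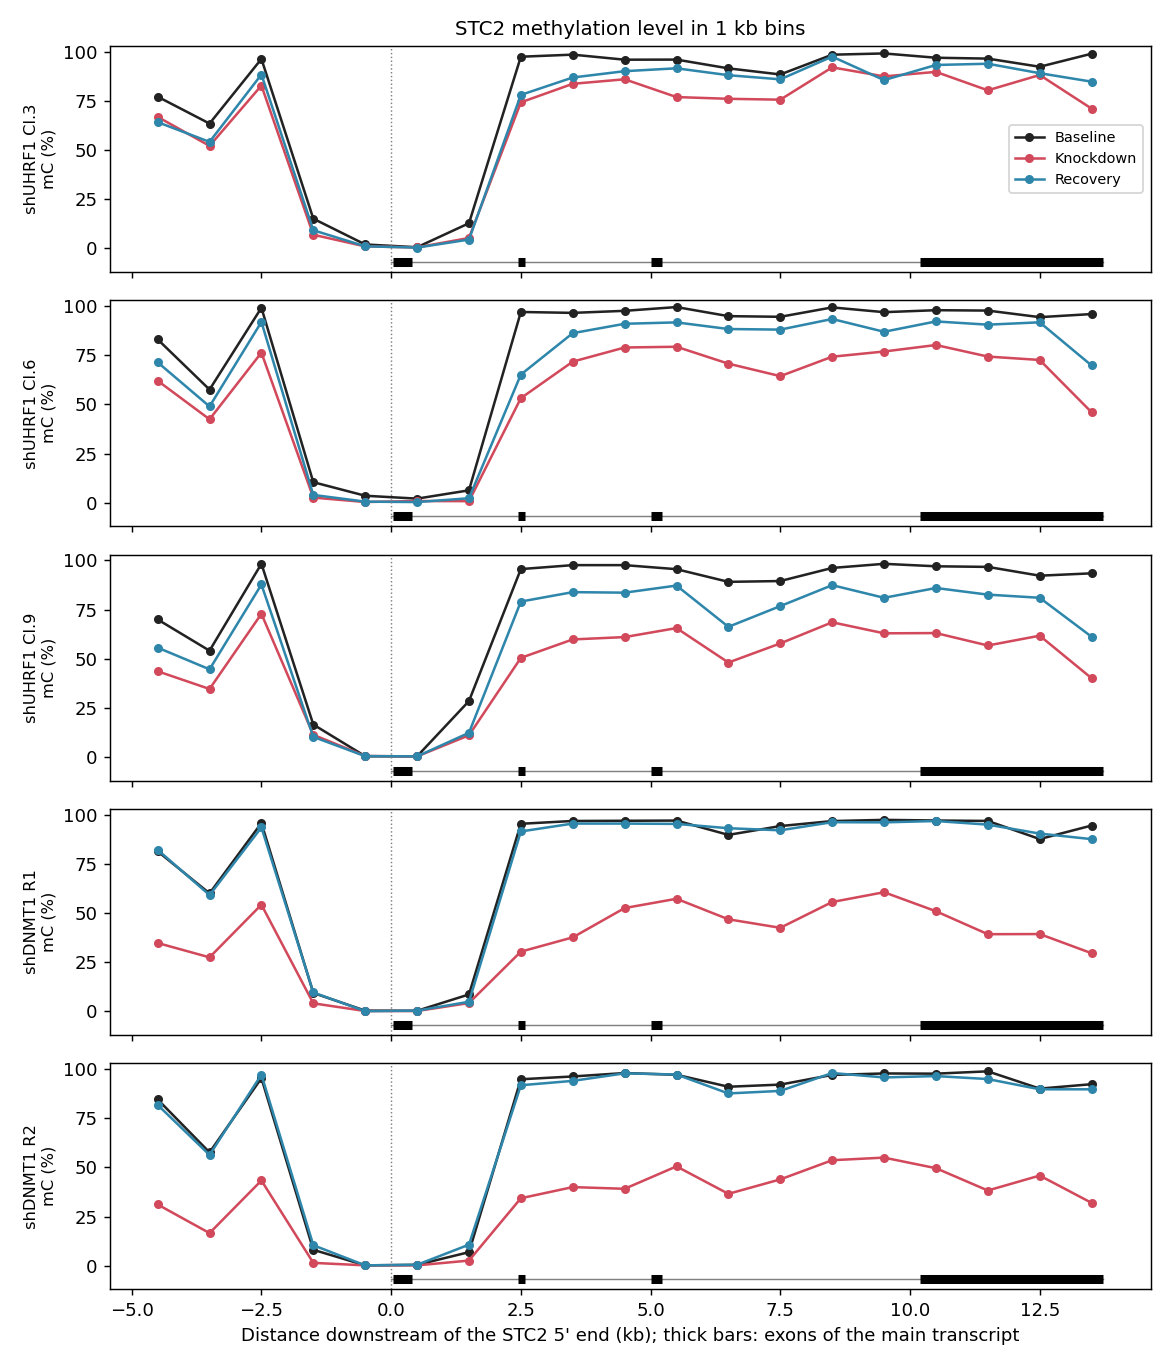
Methylation level (mC, %) of STC2 in 1 kb bins against the distance downstream of the 5′ end (kb), 1 panel per population, with lines for Baseline, Knockdown and Recovery and thick bars for the 4 exons of the main transcript. The bins around the 5′ end stay near 0 at every stage, the bins from 2 kb on lie above 85% at Baseline, and the Recovery line lies close to the Baseline line in R1 and R2 but lies below it in most bins of the 3 clones.

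The next question was how much body methylation was lost at Knockdown. The body fell with either shRNA, and both bulk populations reached lower levels than every clone. From 2 kb on, mC at Knockdown was 83.1% in Cl.3, 72.7% in Cl.6 and 59.1% in Cl.9, and 46.4% in R1 and 44.04% in R2. The shUHRF1 change was -24.6 ± 11.7 points (SD, n = 3). The shDNMT1 change was -50.4 ± 1.87 points (SD, n = 2). The Knockdown levels lay below the Baseline range in all 5 populations, and the spread among the clones was wider than that between the bulk populations. By edgeR the log2 odds ratio was -3.31 ± 0.24 SE (adjusted p = 1.71e-41) and -4.71 ± 0.29 SE (adjusted p = 6.23e-57), and for the body from 1 kb it was -1.48 ± 0.21 SE (adjusted p = 6.77e-12) and -2.31 ± 0.26 SE (adjusted p = 1.75e-18).

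These calls hold for nearly every gene. Of all bodies from 1 kb, 99.8% were called at shUHRF1 Knockdown and 99.8% at shDNMT1 Knockdown, and of those from 2 kb 99.8% were called in the clones. The size of the change at STC2 was compared with that of all genes as a description. From 2 kb on, the median gene changed by -20.8 points in the clones, where 17.3% of genes had a larger fall than STC2. In the bulk populations the median was -39.9 points, and 3.51% of genes had a larger fall. The body from 1 kb ranked otherwise. There STC2 changed by -21.5 ± 10.6 points (SD, n = 3) in the clones, beside a median of -20.8 points, and 42.8% of genes had a larger fall. With shDNMT1 it changed by -37.5 ± 4.63 points (SD, n = 2), beside a median of -39.7 points, and 68.1% of genes had a larger fall, so the rank of STC2 depends on the stretch read. An exact sign-flip permutation over populations cannot give a two-sided p under 0.25 with 3 populations or 0.5 with 2, and these smallest values were reached for both changes.

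The recovery comparison asked how much returned after doxycycline was withdrawn. From 2 kb on, mC at Recovery was 88.9%, 87.4% and 81.7% in Cl.3, Cl.6 and Cl.9, each between its Knockdown and Baseline values. In R1 and R2 it was 94.3% and 94.3%, a difference from Baseline of -1.09 and -1.47 points. Relative to Baseline this was -10.2 ± 3.29 points (SD, n = 3) with shUHRF1. With shDNMT1 it was -1.28 ± 0.270 points (SD, n = 2). The median gene lay -10.4 points from Baseline in the clones, where 52.0% of genes lay lower than STC2. In the bulk populations the median was -1.03 points, and 36.2% of genes lay lower. In the clones 55.8 ± 9.49% of the loss was regained (SD, n = 3), with 44.9% in Cl.3, 60.2% in Cl.6 and 62.3% in Cl.9, and in the bulk populations 97.5 ± 0.442% (SD, n = 2). For the body from 1 kb the mean share regained was 32.0% in the clones (n = 3), spread from -13.9% in Cl.3 to 59.3% in Cl.6, with 50.6% in Cl.9. For R1 and R2 it was 101.1 ± 8.29% (SD, n = 2). These shares from 1 kb also move with the part of the reads that lies in the 1 to 2 kb interval. In R1 the body from 1 kb was 2.39 points above Baseline at Recovery. Its stretches from 2 kb and from 1 to 2 kb were both below (-1.09 and -3.73 points). The Recovery and Knockdown changes use the same Baseline libraries. As a share of the mean loss, STC2 from 2 kb regained 58.6% in the clones and 97.5% in the bulk populations. The medians over genes that lost 5 points or more were 50.9% and 97.4%. From 1 kb the shares were 42.3% and 100.6%, beside medians of 49.4% and 97.3%.

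By edgeR the shUHRF1 body was lower at Recovery than at Baseline from 2 kb on (log2 odds ratio -2.06 ± 0.24 SE, adjusted p = 1.84e-16) and from 1 kb (-0.93 ± 0.21 SE, adjusted p = 1.82e-05). Without Cl.6 the shUHRF1 body from 2 kb was still called at Knockdown (-3.11, adjusted p = 8.92e-18) and Recovery (-1.94, adjusted p = 2.38e-07). The shDNMT1 body was not called (from 2 kb -0.39 ± 0.29 SE, adjusted p = 0.927, and from 1 kb 0.01 ± 0.26 SE, adjusted p = 0.994). Among all bodies 97.9% from 2 kb and 97.1% from 1 kb were called in the clones and 0.0% from 1 kb in the bulk populations, where 292 of 18784 had an unadjusted p under 0.05 and limma called 2. Between Knockdown and Recovery the body rose in the clones from 2 kb on (1.25 ± 0.23 SE, adjusted p = 3.62e-07, against 86.2% of bodies called) and in the bulk populations from 1 kb (2.32 ± 0.26 SE, adjusted p = 1.08e-18, against 99.8% called). From 1 kb the rise in the clones was 0.55 ± 0.21 SE (adjusted p = 0.0125, against 84.6% called) and was not called without Cl.6 (adjusted p = 0.192) or without Cl.9 (adjusted p = 0.0829). Nor was it called without the population as a block (adjusted p = 0.231), where 0 of 18784 bodies were. In points, the Recovery minus Knockdown difference of the body from 1 kb was -1.55 in Cl.3, 12.4 in Cl.6 and 16.4 in Cl.9, so Cl.3 lay on the other side of 0. In Cl.3 the 1 to 2 kb interval gave 622 of 3294 body reads at Knockdown and 934 of 3571 at Recovery. From 2 kb on Cl.3 rose by 5.84 points, and its 1 to 2 kb interval changed by -0.809 points. The Cl.3 value from 1 kb therefore does not show a fall of the stretch from 2 kb.

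**Figure D2:**
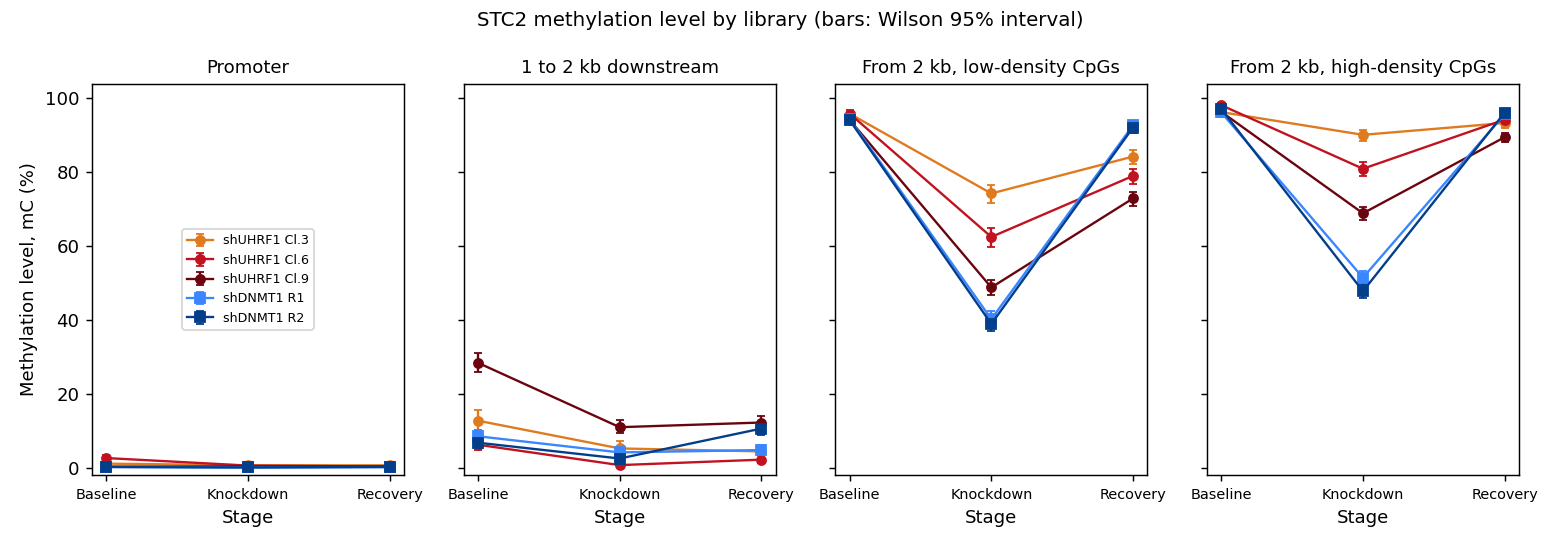
Methylation level (mC, %) of 4 stretches of STC2 at Baseline, Knockdown and Recovery, with 1 line per population and bars for the Wilson 95% interval (counting error only). The promoter lies at 2.71% or less throughout, and from 2 kb on the low-density CpGs (nearest CpG at 20 bp or more) reach lower values at Knockdown than the high-density CpGs in all 5 populations.

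The difference between the shRNAs was tested as an interaction. At Knockdown the fall was smaller in the clones (difference of log2 odds ratios 1.41 ± 0.37 SE from 2 kb, adjusted p = 0.000626, and 0.83 ± 0.34 SE from 1 kb, adjusted p = 0.0187). At Recovery the clones lay lower relative to Baseline (-1.67 ± 0.38 SE, adjusted p = 0.000143, and -0.95 ± 0.34 SE, adjusted p = 0.00819). None of these differences was called without the population as a block (adjusted p = 0.164 and 0.188 from 2 kb, and 0.253 and 0.227 from 1 kb). That fit called 0 of 18230 bodies from 2 kb and 0 of 18784 from 1 kb for either difference, so this loss is not particular to STC2. With the block, background calls were 83.6% and 86.4% of bodies from 2 kb and 83.2% and 83.3% from 1 kb. From 2 kb neither difference was called without R1 (adjusted p = 0.0509 and 0.0566) or without R2 (0.0784 and 0.0530), where a single bulk population stood for the arm and was assumed to vary like the clones. From 1 kb the Knockdown difference was also not called without Cl.6 (adjusted p = 0.0982), R1 (0.0795) or R2 (0.292), nor the Recovery difference without R1 (0.179) or R2 (0.0864).

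Along the gene the loss was uneven. All 13 bins of the body, from 1 kb on, were called lower at Knockdown with either shRNA and at shUHRF1 Recovery, where 97.2%, 97.6% and 83.8% of 1146481 bins genome-wide were called lower. By limma 9 of the 13 were called at shUHRF1 Recovery without the block, 11 without Cl.6 and 10 without Cl.9. Genome-wide 594220, 717853 and 579192 of the 1146481 bins were called lower in these fits. At shUHRF1 Recovery some of the 13 also lost their call without R1 or without R2, where 1 bulk population was left. At shDNMT1 Knockdown 12 of the 13 were called without the block, beside 1040217 bins genome-wide, and without R2 not all were called. At shDNMT1 Recovery 0 of the 13 bins were called by edgeR or limma (1 had an unadjusted p under 0.05), against 0.0% genome-wide. The largest mean falls in the clones were at the edges of the methylated stretch. The first bin from 2 kb, which contains exon 2, changed by -37.4 ± 12.3 points (SD, n = 3) in the clones and -62.8 ± 3.19 points (SD, n = 2) in the bulk populations, and its mC at Knockdown was 74.3% in Cl.3, 53.2% in Cl.6 and 50.4% in Cl.9, against 30.4% in R1 and 34.3% in R2. The last, shorter bin from 13 kb, in the 3′ part of exon 4, has 8 CpGs and changed by -43.8 ± 13.8 points (SD, n = 3) and -62.7 ± 3.24 points (SD, n = 2), to 71.1%, 46.0% and 40.1% in the clones, against 29.6% in R1 and 31.9% in R2.

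Between these edges the mean change in the clones ranged from -18.8 to -26.9 points, and that in the bulk populations from -39.8 to -59.1 points. For example, the bin from 8 kb in intron 3 had Knockdown levels of 92.1%, 74.3% and 68.5% in the clones, against 55.6% in R1 and 53.6% in R2. The SD between clones was 5.99 to 13.8 points in the bins from 2 kb on. It includes the unlike depth of loss of the clones, which all bins share, so it does not decide the order of bins. Differences between bins within a clone were not tested. The bin from 4 kb, with 33 CpGs, changed by -21.7 ± 13.6 points (SD, n = 3) in the clones and -51.6 ± 10.2 points (SD, n = 2) in the bulk populations.

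The level at Recovery also varied along the gene in the clones. The bin from 2 kb lay at 78.1%, 65.2% and 79.1% at Recovery, against 91.5% and 91.8% in the bulk populations, and Cl.9 had come furthest from its Knockdown level there. The bin from 8 kb lay at 97.6%, 93.5% and 87.4% in the clones at Recovery. In the bulk populations the share regained over the bins from 2 kb on was 92.5% to 102%. The 1 to 2 kb interval differed, since its mC at Recovery was 4.50%, 2.27% and 12.3% in the clones, close to the Knockdown values of 5.31%, 0.794% and 11.1% and below the Baseline values in all 3. R1 also stayed near its Knockdown value there, with 8.60% at Baseline, 4.23% at Knockdown and 4.87% at Recovery, whereas R2 had 6.86%, 2.58% and 10.7%. The share of the loss regained was -10.8%, 26.8% and 7.28% in Cl.3, Cl.6 and Cl.9, 14.7% in R1 and 189% in R2. The Cl.6 share rests on the Baseline library with the raised mitochondrial level, whose part in it was not tested.

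Upstream of the gene a comparable step was seen. The bin from 1 to 2 kb upstream, with 84 CpGs, had Baseline levels of 8.07% to 16.5%, and the bin from 2 to 3 kb upstream, with 8 CpGs, had 95.4% to 99.2%. The bin from 3 to 4 kb upstream was intermediate, at 54.1% to 63.5% at Baseline, and changed by -15.3 ± 4.07 points (SD, n = 3) in the clones and -36.8 ± 6.03 points (SD, n = 2) in the bulk populations at Knockdown. At Recovery it was -9.13 ± 0.480 points from Baseline in the clones (SD, n = 3), whereas R1 and R2 averaged -1.08 ± 0.313 points (SD, n = 2).

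The domain lists of the authors name unmethylated regions (UMRs), low-methylated regions (LMRs), partially methylated domains (PMDs) and highly methylated domains (HMDs), called separately in each library. The STC2 promoter lay entirely in a UMR in all 15 libraries. At Baseline that UMR was 2943 bp long in Cl.9 and 3635 to 3765 bp in the other populations, and the body was HMD over 92.4% to 97.5% of its length. At Knockdown the UMR was 4463, 4669 and 4533 bp long in Cl.3, Cl.6 and Cl.9 and 6325 and 9550 bp in R1 and R2. Its downstream edge, at 1313 to 1966 bp at Baseline, lay at 2355, 2355 and 2755 bp in the clones, against 3897 bp in R1 and 5049 bp in R2. The UMR was thus longer at Knockdown than at Baseline in all 5 populations, and longer in both bulk populations than in any clone.

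The class of the body also differed between the clones at Knockdown. HMD still covered 81.9% of the body in Cl.3 and PMD covered 7.47%, whereas in Cl.6, Cl.9, R1 and R2 HMD covered none of it and PMD covered 75.5%, 88.6%, 77.1% and 76.0%. At Recovery the body was HMD over 84.5% to 92.4% of its length in all 5 populations, with PMD over 7.87% in Cl.9 alone. The UMR was 3724 to 4463 bp long at Recovery, and in Cl.6 it had the same downstream edge as at Knockdown (2355 bp). UMRs and LMRs can lie inside PMDs and some stretches have no class, so the shares of the classes need not add up. In Cl.6 at Knockdown, for example, no class was listed between 2.355 and 4.115 kb downstream. Within the body a further UMR was listed in R1 at Knockdown. The bins from 11, 12 and 13 kb, over which it lay, held 39.2%, 39.3% and 29.6% mC in that library. LMRs within the body numbered 1 in Cl.9, 2 in R1 and 3 in R2 at Knockdown and 0 in the other libraries.

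**Figure D3:**
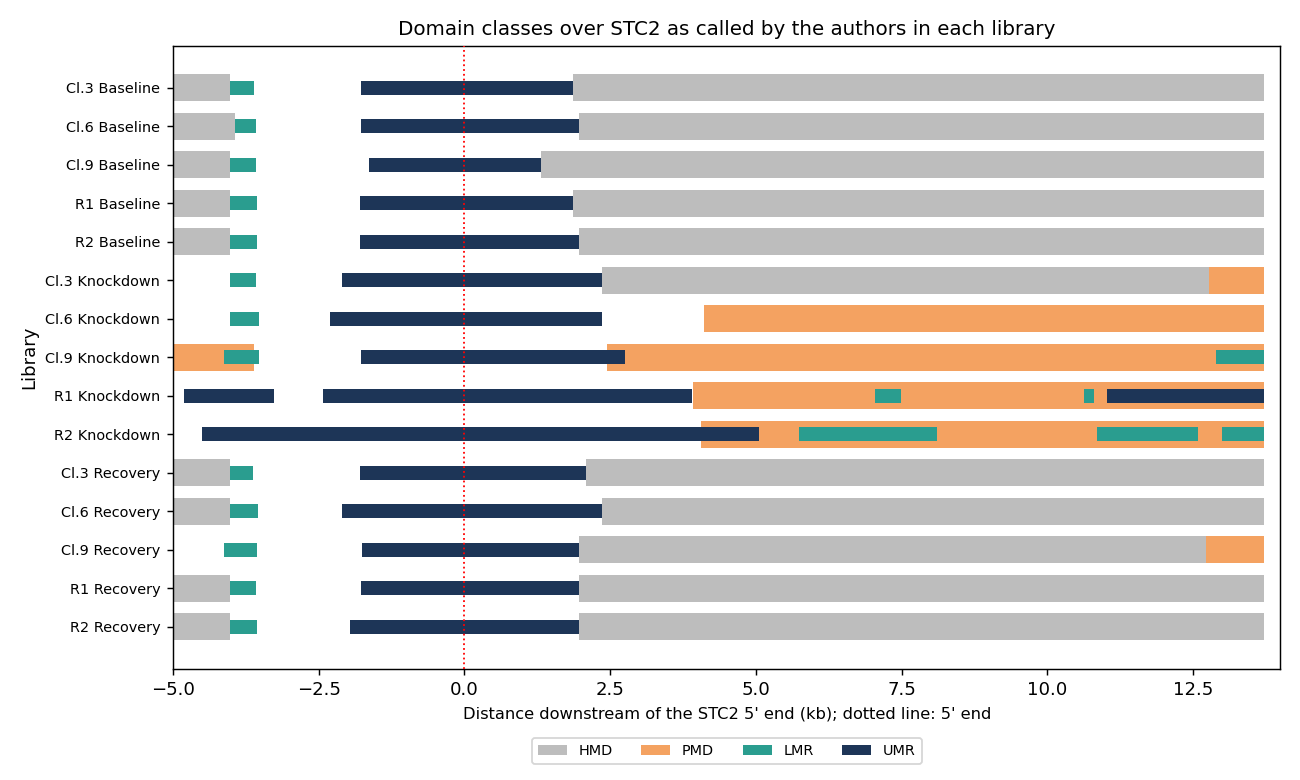
Domain classes over STC2 in each of the 15 libraries, drawn to scale against the distance downstream of the 5′ end (kb), with narrow bars for UMRs and LMRs and wide bars for PMDs and HMDs. The UMR over the 5′ end is longest in R1 and R2 at Knockdown. Past that UMR, the body is HMD at Baseline and, apart from the last part in Cl.9, at Recovery.

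CpG density, a variable the study followed across the genome, was examined next in the body from 2 kb. Low-density CpGs, whose nearest CpG is at least 20 bp away, numbered 95 and high-density CpGs 127. At Baseline their levels were 94.1% to 95.9% and 96.2% to 98.2%. At Knockdown low-density CpGs changed by -21.6 points in Cl.3, -33.4 in Cl.6 and -45.3 in Cl.9, and high-density CpGs by -6.15, -17.2 and -27.4 points. In R1 the values were -54.2 and -44.7 points, and in R2 they were -55.1 and -49.3 points. The fall was larger at low density in all 5 populations, with a low minus high difference of -16.5 ± 1.26 points (SD, n = 3) in the clones and -7.67 ± 2.53 points (SD, n = 2) in the bulk populations. With low density set at 35 bp the differences were -11.1 ± 1.75 and -6.11 ± 0.835 points.

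At Recovery low-density CpGs also lay further below Baseline in the clones, as in most genes, since 93.1% to 94.0% of 17546 genes had a negative low minus high difference there, with medians of -4.92, -5.79 and -11.0 points. In R1 and R2 the share was 69.2% and 68.0%. The change of low-density CpGs from Baseline was -11.6, -16.9 and -21.2 points in Cl.3, Cl.6 and Cl.9, and that of high-density CpGs was -2.95, -3.89 and -6.86 points. In R1 and R2 the change of low-density CpGs was -1.75 and -2.01 points and that of high-density CpGs was -0.473 and -0.948 points. Low-density CpGs had regained 46.2%, 49.5% and 53.1% of their loss in the clones, and high-density CpGs 52.0%, 77.4% and 75.0%. Most gene bodies had a larger fall at low density, 92.5% to 94.3% of 17546 genes in the clones and 87.3% in both bulk populations at Knockdown. The low minus high difference at STC2 was -15.4 points in Cl.3 and -16.2 points in Cl.6, where the medians of all genes were -7.95 and -10.1 points and 4.02% and 6.78% of genes had a more negative value. In Cl.9, R1 and R2 it was -17.9, -9.46 and -5.88 points, beside medians of -16.2, -9.27 and -9.03 points.

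Single CpGs were read where all 15 libraries had at least 10 reads, which left 122 of the 416 CpGs, 40 of them in the promoter and 62 in the body from 2 kb. In 54 of them Baseline mC was at least 85% in all 5 populations. Of these 54, 38 were lower at Knockdown in all 5 populations and 50 fell by 30 points or more in both bulk populations, against 3 in all 3 clones. By population a fall of 30 points or more was seen at 4, 13 and 28 of the 54 in Cl.3, Cl.6 and Cl.9 and at 50 and 52 in R1 and R2. At Recovery 2, 3 and 9 of the 54 lay that far below Baseline in the clones, and 0 did in R1 and R2. The share of all highly methylated CpGs of the genome past this cut was not computed, so these counts set nothing apart at STC2. The joint counts also put a condition on unlike numbers of populations in the 2 arms.

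**Figure D4:**
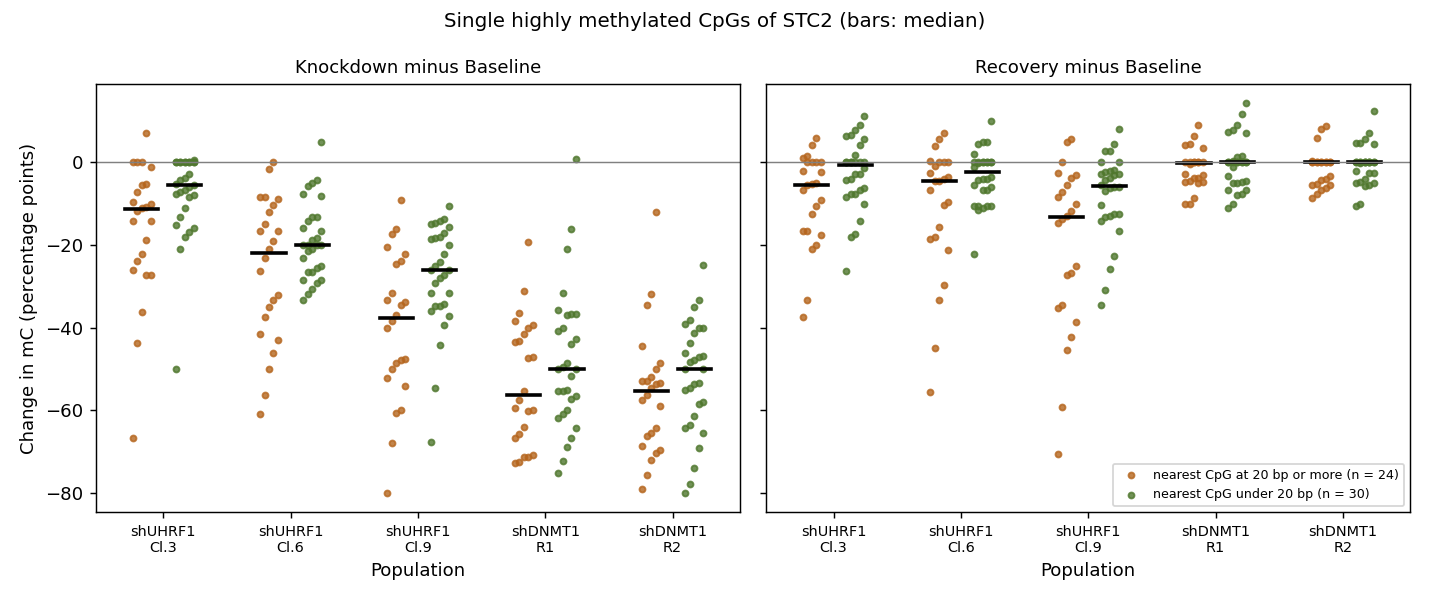
Change in mC (percentage points) from Baseline of the 54 highly methylated CpGs of STC2 with at least 10 reads in all 15 libraries, at Knockdown (left) and Recovery (right), split by the distance to the nearest CpG, with bars for the median. The points reach -80 in Cl.9 and R2 at Knockdown, and at Recovery those of R1 and R2 gather around 0 while several low-density CpGs of the clones stay below -30.

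The reference sequence around the named CpGs is shown because sites with large and small falls lie within the same gene, some of them close together. Each line gives 30 bases of hg38 on the STC2 strand with the CpG in capitals. The first 3 had the largest mean fall over the clones at Knockdown, and the last 3 the smallest mean fall among the 54 highly methylated CpGs.
CpG at 2214 bp (chr5:173326233-173326234, intron 1): tttttgtaatttttCGgctcttttctacaa
CpG at 3342 bp (chr5:173325105-173325106, intron 2): ctatatctcagaaaCGtctctcctgcttca
CpG at 13067 bp (chr5:173315380-173315381, 3′ UTR in exon 4): ttctcctcagaagtCGggtagatagcattt
CpG at 2829 bp (chr5:173325618-173325619, intron 2): cttgtaaggggacaCGctgtgtctggccac
CpG at 2463 bp (chr5:173325984-173325985, coding exon 2): cactgtttggtcaaCGctggcgatgtgggg
CpG at 2469 bp (chr5:173325978-173325979, coding exon 2): ttggtcaacgctggCGatgtggggtgtggc

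The 3 CpGs with the largest falls have their nearest CpG 58, 24 and 31 bp away. At the CpG at 2214 bp, mC in Cl.3, Cl.6 and Cl.9 was 100%, 100% and 94.7% at Baseline, 10.0%, 9.52% and 21.4% at Knockdown, and 38.1%, 22.2% and 56.5% at Recovery. In R1 it was 100%, 28.0% and 90.9% at the 3 stages, and in R2 it was 71.4%, 20.0% and 81.3%. Every clone was thus lower at Knockdown than either bulk population except for Cl.9 beside R2, and lower at Recovery than both. The depth there was 10 to 28 reads, so the Wilson 95% interval of the Cl.3 Knockdown value ran from 1.79% to 40.4%.

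The CpG at 3342 bp changed by -69.2 ± 9.80 points (SD, n = 3) in the clones and the CpG at 13067 bp by -62.8 ± 11.1 points (SD, n = 3), beside -62.5 and -53.4 points on average in the bulk populations. The same 3 CpGs had the largest mean deficit at Recovery over the clones, at -59.3 ± 19.9, -51.0 ± 17.3 and -43.8 ± 6.70 points (SD, n = 3). Both rankings use the same Baseline reads. In the bulk populations these CpGs were 0.365, -1.90 and 7.50 points from Baseline at Recovery. They were chosen for these values, which are therefore a description.

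The CpGs with the smallest falls in the clones were chosen for those values, so their contrast with the bulk populations is a description. In the bulk populations the CpGs at 2829, 2463 and 2469 bp changed by -49.9, -51.2 and -62.6 points on average. The medians of the 54 highly methylated CpGs were -50.8 points in R1 and -53.6 points in R2. The CpGs at 2463 and 2469 bp, 6 bp apart in exon 2, had 100%, 94.1% and 82.8% and 100%, 85.7% and 80.0% at Knockdown in Cl.3, Cl.6 and Cl.9. In R1 and R2 the values were 38.5% and 42.9% for the first and 39.1% and 35.7% for the second. The low-density CpG at 2829 bp had 100%, 85.7% and 75.0% in the clones, against 47.4% in R1 and 43.8% in R2.

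Single CpGs were also compared within a population by Fisher's exact test, which compares libraries and not conditions. At Knockdown 5 of 186, 22 of 286 and 137 of 407 tested CpGs of STC2 were called lower in Cl.3, Cl.6 and Cl.9, and in R1 and R2 it was 134 of 349 and 190 of 407. Genome-wide 2.17%, 10.7%, 48.0%, 54.0% and 60.8% of CpGs were called lower in these comparisons. Over all tested CpGs of STC2 the called shares were 2.69%, 7.69%, 33.7%, 38.4% and 46.7%. The promoter gave no call in any population. Over the body from 2 kb alone the called share was 4.21%, 14.7%, 53.0%, 80.0% and 88.3%. The genome-wide shares cover CpGs of any Baseline level and were not computed for bodies from 2 kb, so they are no measure for that stretch. At Recovery 1 of 209, 3 of 283 and 47 of 398 were called in the clones, where 0.42%, 1.87% and 23.1% were called genome-wide. Over the body from 2 kb the called share was 0.926%, 2.08% and 14.1%, and 18 of the 47 calls in Cl.9 lay in the 1 to 2 kb interval. In R1 and R2 0 of 346 and 0 of 390 were called (0 and 1 had an unadjusted p under 0.05), against 0.0% and 0.0% genome-wide. The median depth was 11 to 13 in Cl.3 and Cl.6 and 19 to 20 in Cl.9, so the counts are not comparable between clones.

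The 5 protein-coding genes whose 30 values (promoter and body from 1 kb in each library) were closest to those of STC2 were H2BC5, ITGA3, MZT2B, INKA2 and CTC1, among 18545 genes. Their root mean square differences from STC2 were 1.54, 2.08, 2.34, 2.42 and 2.43 points, and that of the sixth gene, TXN, was 2.68 points, so no gap sets the 5 apart. H2BC5 is a histone gene of a family with near-identical copies, so its reads may be shared. Its body changed by -22.1 ± 7.41 points (SD, n = 3) in the clones and -40.3 ± 0.930 points (SD, n = 2) in the bulk populations at Knockdown, beside -21.5 ± 10.6 and -37.5 ± 4.63 points at STC2.

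The neighbourhood of STC2 on chromosome 5 was compared over bodies from 1 kb. The 4 nearest protein-coding genes on the 3′ side were NKX2-5, BNIP1, CREBRF and ATP6V0E1, from 79.4 kb away, and those on the 5′ side were BOD1, CPEB4, C5orf47 and NSG2, from 279 kb away. All 8 bodies were called lower at Knockdown with either shRNA and at shUHRF1 Recovery, where 99.8%, 99.8% and 97.1% of all bodies were called, and none at shDNMT1 Recovery, where 0.0% were. NKX2-5, a cardiac homeobox transcription factor, had the smallest changes of the 8, -14.4 ± 9.65 points (SD, n = 3) in the clones and -30.7 ± 2.13 points (SD, n = 2) in the bulk populations. NSG2 had the largest change in the clones, -27.6 ± 11.5 points (SD, n = 3), and at Recovery it was -21.2 ± 11.5 points from Baseline, beside -12.4 ± 3.74 points at STC2.

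Genes of the insulin-like growth factor axis that STC2 acts on were read from a list of 8. These were its paralog STC1, the proteases PAPPA and PAPPA2, the binding proteins IGFBP4 and IGFBP5, the ligands IGF1 and IGF2 and the receptor IGF1R. All 8 bodies of the list were called lower at Knockdown with either shRNA and at shUHRF1 Recovery, and 0 at shDNMT1 Recovery, beside 99.8%, 99.8%, 97.1% and 0.0% of all bodies. Their median change at Knockdown was -21.3 points in the clones, beside -20.8 points over all genes. In the bulk populations it was -37.2 points, beside -39.7 points. The promoters were unlike that of STC2, since mean Baseline mC in the clones was 31.7% (PAPPA2) to 94.8% (IGFBP4) in 7 of them. The exception was IGF1R at 1.73%. At Knockdown 7 of the 8 promoters were called lower in the clones, with a median of -23.0 points against -9.65 points over all genes, and 7 in the bulk populations, with a median of -36.5 points against -13.8 points. The uncalled promoters were PAPPA2 in the clones (-9.51 ± 12.3 points, SD, n = 3, adjusted p = 0.0531) and IGF1R in the bulk populations (adjusted p = 0.574). At shUHRF1 Recovery 6 of the 8 promoters were called lower, with STC1 (adjusted p = 0.127) and PAPPA2 (adjusted p = 0.428) not called. Among all promoters the shares called in these 3 comparisons were 91.7%, 93.6% and 75.1%. The IGF1R promoter, called in the clones, changed by -1.43 ± 1.73 points (SD, n = 3) at Knockdown, and its call was not tested without Cl.6.

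The ATF4 pathway was read from a list of 9 genes, the kinase EIF2AK3, the factors ATF4, ATF3 and DDIT3, the targets TRIB3, ASNS, CHAC1 and DDIT4, and the chaperone HSPA5. All 9 promoters and all 9 bodies were called lower at Knockdown with either shRNA, and 0 at shDNMT1 Recovery. Over all genes 91.7% and 93.6% of promoters and 99.8% and 99.8% of bodies were called at Knockdown, and 0.0% of either at shDNMT1 Recovery. The median body change was -19.8 points in the clones, beside -20.8 points over all genes. In the bulk populations it was -36.4 points, beside -39.7 points. HSPA5 had a promoter at 1.48% and a body from 1 kb at 96.5% at Baseline in the clones, where STC2 had 1.43% and 79.4%, and its body changed by -24.0 ± 9.66 points (SD, n = 3). Its promoter changed by -1.02 ± 1.03 points (SD, n = 3), and that call was not tested without Cl.6. The body of ATF4 itself had only 11.6% at Baseline in the clones and changed by -9.05 ± 1.61 points (SD, n = 3). At shUHRF1 Recovery 8 of the 9 promoters were called lower, DDIT4 being the exception (adjusted p = 0.415), and 8 of the 9 bodies, DDIT3 being the exception (adjusted p = 0.478), beside 75.1% of all promoters and 97.1% of all bodies.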

How the data were processed

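The authors aligned whole-genome bisulfite reads to hg38 with their Meth10X pipeline and deposited counts for every CpG and library, the methylated reads and all reads, with no normalization (29456478 positions, 30 columns). They also deposited domain lists, UMRs, LMRs and PMDs called with MethylSeekR and HMDs as the highly methylated remainder, of which starts, ends and classes were used. bedtools 2.25.0 is named in the submitters' processing notes. How read duplicates were treated is not given in the sources used here.

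Groups came from the sample titles. Counts were summed over promoters and bodies of protein-coding genes (GENCODE release 44) that held 5 CpGs or more and 50 reads or more per library, and over 1 kb body bins with at least 3 CpGs and 30 reads. All genes were tested together with edgeR 4.0.16 (glmQLFit and glmQLFTest, methylation design), all 15 libraries and the population as a block, and Benjamini-Hochberg adjusted p under 0.05 were called. For bins the dispersion came from 20000 of them. Single CpGs were tested within a population by Fisher's exact test with genome-wide adjustment, which compares libraries and not conditions. limma 3.58.1 on log2 of methylated over unmethylated reads (pseudocount 1) served as an alternative. Wilson 95% intervals came from scipy 1.17.1.

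The block rests on the labels, by which the 3 stages share a clone or bulk population. Over gene bodies the deviations from the group mean correlated with r of 0.314 to 0.725 within clones and 0.00346 to 0.0268 within bulk populations. No pair of populations was a duplicate, with a chi-square per gene body of 3.46 or more. The edgeR and limma p-values use a spread shared by both arms and moderated over all genes tested. They do not measure the spread of STC2 alone among its clones or bulk populations. The Fisher p-values measure counting error only. In simulated data for the gene body at shUHRF1 Knockdown (18784 genes, 200 changed) edgeR called 87% of those with a log2 odds ratio of -1 and 100% at -2, with 12 false calls. For single CpGs at Cl.6 depths 67.6% of simulated falls from 95% to 50% were called.

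The gene, the gene lists and the rules for named items were chosen with earlier results of these data known. Named genes were the 5 closest to STC2 by root mean square difference, the 4 nearest on either side, and 2 lists. Named CpGs were the 3 with the largest mean fall, the 3 with the smallest fall at a Baseline of 85% or more, and the 3 with the largest deficit at Recovery, over the clones. Exons follow transcript STC2-201. The body from 2 kb and its alternatives were added after seeing the data.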

Additional observations from a re-analysis of the deposited data

Results flagged for a closer look

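The effects of the 2 shRNAs on the STC2 body differed by the interaction test in edgeR. For the body from 1 kb the difference of log2 odds ratios was 0.83 at Knockdown, with a smaller fall in the shUHRF1 clones, and -0.95 at Recovery, with the clones further below Baseline. For the body from 2 kb the differences were 1.41 and -1.67. At Knockdown each bulk population had a larger fall in points than each clone, and at Recovery each clone lay further below Baseline than either bulk population. From 2 kb both differences lost their call without R1 (adjusted p = 0.0509 and 0.0566), without R2 (0.0784 and 0.0530) and without the population as a block (0.164 and 0.188). From 1 kb both lost it without R1, without R2 and without the block (0.253 and 0.227), and the Knockdown difference also without Cl.6 (0.0982). With the block the same test called 83.2% to 86.4% of gene bodies, and without it 0 of 18230 from 2 kb and 0 of 18784 from 1 kb. The arms hold 3 and 2 populations, and the shRNA cannot be told apart from the use of clones or bulk cultures.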

How the results depend on the processing

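Of 283 values under the alternatives, 248 kept their direction and side of the threshold or moved little, 21 lost their call, 9 moved and 5 changed sign. The falls of the STC2 body from 1 kb at Knockdown and at shUHRF1 Recovery kept their calls under every alternative run. Without the population as a block, the shUHRF1 promoter was not called at Knockdown (-0.96, adjusted p = 0.114) or Recovery (-1.20, adjusted p = 0.0866). Nor were the shUHRF1 body regain (0.55, adjusted p = 0.231) and the differences between shRNAs at Knockdown (0.83, adjusted p = 0.253) and Recovery (-0.94, adjusted p = 0.227). From 2 kb the differences between shRNAs were 1.43 (adjusted p = 0.164) and -1.65 (adjusted p = 0.188) without the block. Without the block 0 of 18784 bodies from 1 kb and 0 of 18230 from 2 kb were called for these differences, and 0 of 18784 for the shUHRF1 regain. With limma the shUHRF1 promoter at Knockdown was -0.83 (adjusted p = 0.0550), and its difference from shDNMT1 changed sign to 0.014.

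When populations were left out in turn, the shUHRF1 promoter ranged from -1.46 to -0.30 at Knockdown and from -1.72 to -0.35 at Recovery. The promoter difference between shRNAs at Knockdown ranged from -0.54 to 0.63, positive without Cl.6, and the shDNMT1 promoter at Recovery from -0.39 to 0.12, positive without R1. The body regain in the clones ranged from 0.34 to 0.88, and the body differences between shRNAs from 0.51 to 1.18 at Knockdown and from -1.11 to -0.78 at Recovery. The shDNMT1 body at Recovery ranged from -0.15 to 0.18, negative without R1, and was -0.39 from 2 kb. In these cases the cause was not tested.

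With at least 20 reads in both libraries fewer CpGs were tested. At Knockdown 1 of 5, 5 of 25 and 73 of 224 were called lower in Cl.3, Cl.6 and Cl.9, and 21 of 88 and 67 of 182 in R1 and R2. Genome-wide the shares were 9.58%, 28.0%, 58.0%, 66.5% and 70.4%. At Recovery it was 0 of 2, 0 of 34 and 27 of 208 in the clones, against 2.33%, 6.45% and 31.4% genome-wide. These counts include promoter CpGs, none of which was called. With low density set at 35 bp the low minus high difference in the clones was -11.1 points. Depth also limits single CpGs, at 10 to 35 reads for the named CpGs with the largest falls.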

Other observations

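In the 1 to 2 kb interval downstream of the STC2 5′ end, Cl.9 Baseline had 28.5% mC, against 6.30% to 12.8% in the other 4 Baseline libraries. Its UMR was also the shortest of the 15, at 2943 bp. The interval lay at 12.3% in Cl.9 at Recovery, a regain of 7.28% of its loss, while the body from 2 kb in the same clone had regained 62.3%. The interval had regained -10.8% of its loss in Cl.3 and 14.7% in R1, so low return there was not particular to Cl.9, whereas in R2 it was 6.86% at Baseline and 10.7% at Recovery. These sites were singled out after their values were seen.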
